A study of Mus musculus with 8 samples.

Results

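The MAP kinase cascade kinases described here are the genes whose symbols read Map2k, Map3k, Map4k or Mapk followed only by a number. That rule found 40 members among the 29955 gene names in the files: 5 MAP4K, 15 MAP3K, 7 MAP2K and 13 MAPK genes. RNA was sequenced from bone marrow cells of wild type (WT) mice and of mice lacking Ripk3, the kinase that starts necroptosis, a lytic form of cell death. Cells were sorted as LSK (Lin- Sca1+ Kit+, a gate rich in stem and multipotent cells) or LK (Lin- Kit+, mostly committed progenitors). There were 2 libraries for each genotype in each gate, 8 in all. The strain label of all 4 groups reads CD57BL6/J, and age is not given. The labels state no treatment, whereas the published methods have mice given fractionated X-rays and cells taken about a month later; which applies to these libraries cannot be told from the files. How many mice stand behind each library is not stated, so every p-value below measures only the spread between these libraries, which may be technical.

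Depth ranged from 9782166 reads in WT LSK replicate 1 to 16280811 in Ripk3-/- LK replicate 2. The deposited values, headed FPKM, are reads scaled to a common library size within each population and not divided by gene length; they are called signal here. A signal of 3 reads lay between 0.186 and 0.311, and such floors cover counting error only. The intervals given below rest, like the p-values, on the spread between these libraries. Where LSK and LK are tested against each other, values are read counts scaled to a common depth over all 8 libraries (CPM) instead. Marker sums and single-gene signals shown for both populations keep the deposited scale, which was set within each population. The 40 kinases together took 0.217% and 0.216% of reads in WT LSK, 0.233% and 0.231% in Ripk3-/- LSK, 0.196% and 0.208% in WT LK, and 0.202% and 0.204% in Ripk3-/- LK. The share was thus slightly larger in all 4 LSK libraries than in any LK library.

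MAP kinase signalling passes a signal from kinase to kinase: MAP4K enzymes act on MAP3K enzymes, these phosphorylate MAP2K enzymes, and these in turn activate the MAPK enzymes that act on transcription factors and other proteins. The ERK branch answers mainly growth factors and cytokines, while the p38 and JNK branches answer inflammatory cytokines and stress. In blood-forming tissue the ERK branch acts downstream of Kit and other cytokine receptors, and p38 activity is known to limit stem cells under stress. Transcript levels, which are all that was measured here, do not show whether a kinase is active.

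The targeted gene was checked before the kinases. Ripk3 signal came to 162 and 168 for WT LSK, 3.38 and 1.08 for Ripk3-/- LSK, 144 and 149.7 for WT LK, and 16.2 and 10.6 for Ripk3-/- LK. It was low in all 4 libraries labelled Ripk3-/- and high in all 4 labelled WT, though more remained in Ripk3-/- LK than in Ripk3-/- LSK. Xist, the RNA that silences an X chromosome in females, gave a signal of 402 and 413 for WT LSK, 0 and 1.27 for Ripk3-/- LSK, 108 and 196 for WT LK, and 0.380 and 0.373 for Ripk3-/- LK. The Y-linked gene Eif2s3y had 0 and 0 for WT LSK, 58.1 and 98.8 for Ripk3-/- LSK, 0 and 0 for WT LK, and 47.0 and 51.4 for Ripk3-/- LK. Xist was high and Eif2s3y at 0 in every WT library and the reverse held in every Ripk3-/- library, so sex and genotype cannot be told apart in any genotype comparison. A listed value of 0 needs care, because the Y-linked Ddx3y is listed at 0 in all 8 libraries.

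The gates held at the transcript level. Ly6a, which encodes Sca1, gave a signal of 141 and 192 for WT LSK, 187 and 237 for Ripk3-/- LSK, 1.77 and 0.763 for WT LK, and 4.12 and 0.124 for Ripk3-/- LK. Kit ran from 223 to 464 and was present in all 8 libraries. Of 8 stem and multipotent markers, 7 were higher in LSK than in LK in each genotype, and all 5 myeloid progenitor markers were lower. Erythroid and megakaryocytic markers were lower in LSK for 6 of 7 genes in WT and 7 of 7 in Ripk3-/-. Markers of mature cells were present to unlike degrees: the summed signal of 5 T cell genes was at most 33.1, and that of 4 stromal and endothelial genes at most 37.7, both sums being larger in every LSK library than in every LK library. Macrophage markers summed to at most 70.5, B cell markers to at most 97.3, and mast cell and basophil markers to at most 356. Late granulocyte markers summed to between 689 and 2698, more than the stem and multipotent markers in every LK library and in both Ripk3-/- LSK libraries. Signal is not divided by gene length, so sums of different lists do not rank their abundance.

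Nearly the whole cascade was present in these cells. Averaged across the 8 libraries, 39 of the 40 members had a signal of 1 or more, against 53.1% of all gene names. The member just inside was Map3k15, a relative of the stress kinase Map3k5, at 1.24, and the member outside was Mapk15, an atypical MAP kinase, at 0.868. Counted within groups, 38 members reached a mean of 1 in WT LSK, 40 in Ripk3-/- LSK, 38 in WT LK and 37 in Ripk3-/- LK. A mean signal under 10 was found for 11 members, and 6 had at least 100.

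Levels can be set beside one another only per length, so the next values are CPM per kb of exon, with lengths from GENCODE M21. Map2k3, an activator of p38, stood highest with a mean of 119; the ERK activator Map2k2 had 72.1 and Mapk14 (p38 alpha) had 53.4. Map4k1, a kinase confined mainly to blood cells, led the MAP4K genes at 41.6, and Map3k11, which feeds the JNK branch, led the MAP3K genes at 14.1. The tiers thus differed in level: every MAP2K member lay above the median of all genes, while among the MAP3K genes Map3k11 was exceeded by 5 of the 7 MAP2K genes. The lowest were Mapk15 at 0.421, Map3k15 at 0.292 and the neuronal JNK gene Mapk10 at 0.252. Over the 39 members with a mean signal of at least 1 the median was 5.38, beside 5.71 over 13041 genes with a length and the same minimum.

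**Figure D1:**
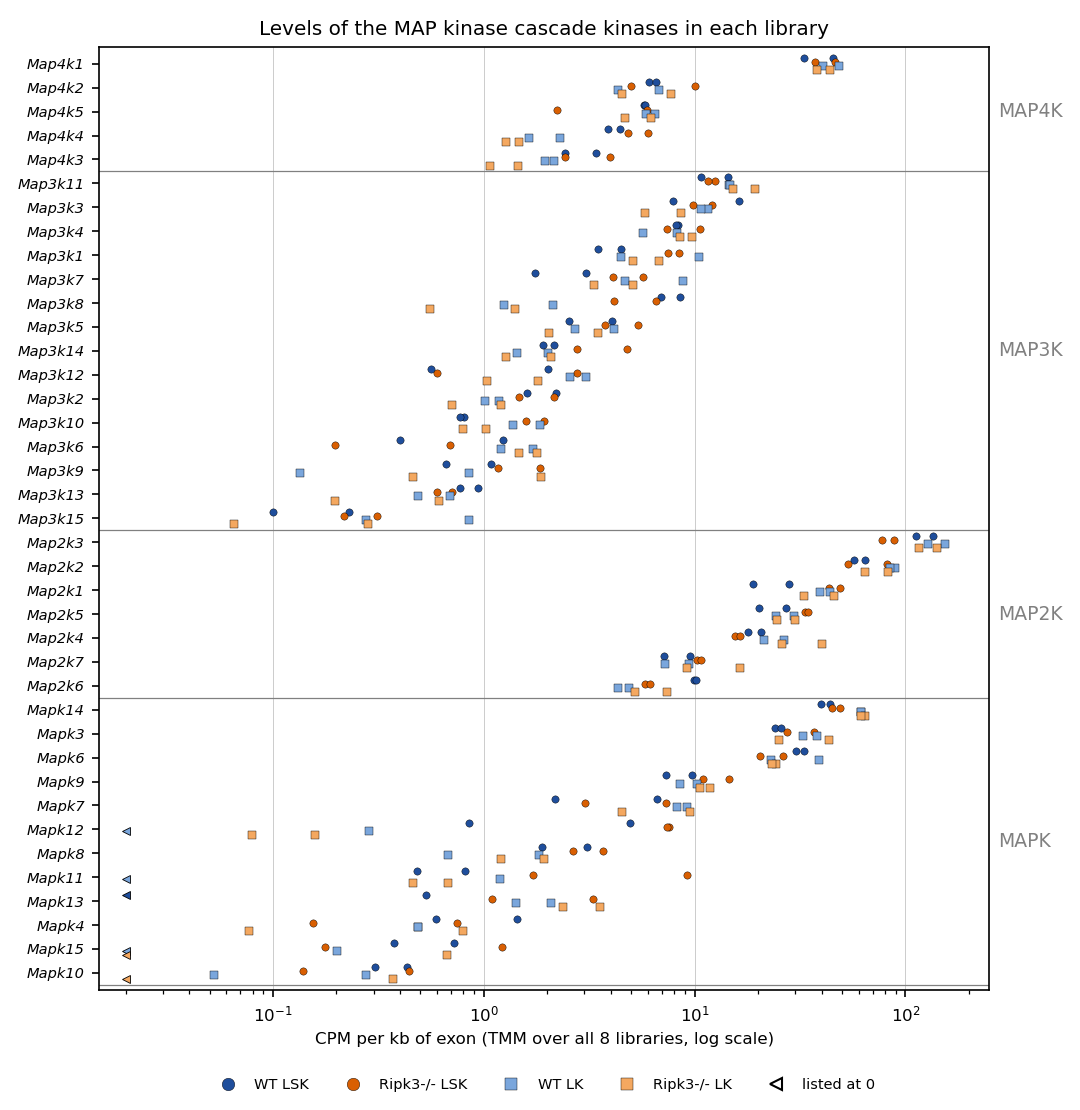
CPM per kb of exon (log scale) of kinases in each of the 8 libraries, by tier; circles are LSK, squares LK, and arrowheads at the left mark a listed 0. MAP2K genes lie mostly to the right of MAP3K genes, and Mapk11, Mapk12 and Mapk13 spread most between groups.

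Within families, the same isoform led in every library for p38, JNK and the ERK activators. Mapk9 (JNK2) held between 68.3% and 93.4% of the JNK transcript per kb. For p38, Mapk14 held 86.4% and 97.1% in WT LSK, 73.4% and 78.3% in Ripk3-/- LSK, 97.7% and 94.5% in WT LK and 95.4% and 93.7% in Ripk3-/- LK. Its share was smallest in both Ripk3-/- LSK libraries, where Mapk11, Mapk12 and Mapk13 made up the rest. Map2k1 (MEK1) held 24.8% and 30.3% of the MEK1 and MEK2 transcript in WT LSK, 37.5% and 44.8% in Ripk3-/- LSK, 30.7% and 34.2% in WT LK and 41.7% and 28.5% in Ripk3-/- LK. The LSK genotypes did not overlap in this share, whereas the LK genotypes did, with the Ripk3-/- LK libraries on either side of WT LK. These shares are descriptions and were not tested.

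**Figure D2:**
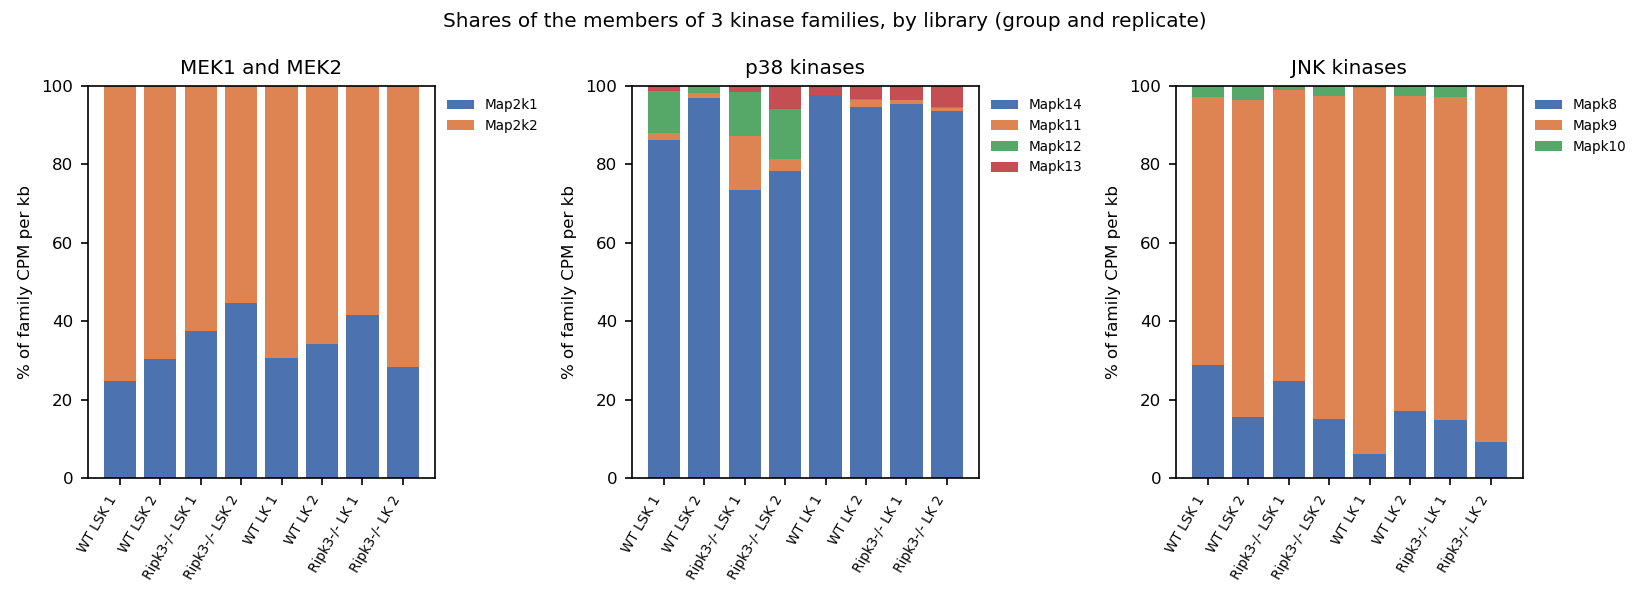
Share (%) of each isoform in the summed CPM per kb of its family, for each of the 8 libraries; each bar adds to 100%. The non-alpha p38 genes take the largest part in the 2 Ripk3-/- LSK libraries, and Map2k1 takes more of the MEK transcript there than in WT LSK.

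What loss of Ripk3 goes with in LSK cells was asked first. Map2k1, which encodes MEK1, the kinase that activates ERK, rose in Ripk3-/- LSK. Its signal came to 52.4 and 77.7 for WT LSK, 135 and 120.2 for Ripk3-/- LSK, 84.3 and 94.6 for WT LK, and 98.4 and 70.0 for Ripk3-/- LK. Both Ripk3-/- LSK libraries lay above both WT LSK libraries, while the LK groups overlapped. The log2 fold change in LSK was 0.98 (SE 0.25, 95% interval 0.47 to 1.499, limma adjusted p 0.0407 after Benjamini-Hochberg correction over all genes tested; higher in 2 of 2 Ripk3-/- libraries). Map2k1 was the 1 member called of 40 tested, where 2.16% of all 16817 genes tested were called, and a share of 1 in 40 is near that background. The call was close to its threshold: it was lost under 15 of 19 alternatives, with adjusted p between 0.0145 and 0.206 and log2 fold changes between 0.71 and 1.26. Leaving out any 1 of the 8 libraries ended it, the highest adjusted p, 0.206, coming without WT LSK replicate 1; edgeR called 0 members (6 at an unadjusted p under 0.05) and DESeq2 called 2, Map2k1 and Map2k3. In bulk samples, fewer cells of a type and less RNA per cell cannot be told apart.

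The largest differences in LSK that did not pass the test were in the minor p38 genes. Mapk13 (p38 delta) had a signal of 1.79 and 0 in WT LSK and 3.62 and 11.1 in Ripk3-/- LSK. Mapk11 (p38 beta) had 2.28 and 1.35 in WT LSK and 25.5 and 4.79 in Ripk3-/- LSK. Mapk12 (p38 gamma) had 10.1 and 1.76 in WT LSK and 15.4 and 15.3 in Ripk3-/- LSK. For all 3 both Ripk3-/- LSK libraries lay above both WT LSK libraries, but replicates stood far apart, above all for Mapk11 in Ripk3-/- LSK and Mapk12 in WT LSK. Their log2 differences were 2.16 (SE 0.67, adjusted p 0.098), 2.16 (SE 0.75, adjusted p 0.139) and 1.56 (SE 0.68, adjusted p 0.238) by limma. Map3k7 (TAK1), the kinase that links TNF and interleukin-1 receptors to p38, JNK and NF-kB, had 20.2 and 11.5 in WT LSK and 26.8 and 37.4 in Ripk3-/- LSK. Its Ripk3-/- libraries were the higher, with a log2 difference of 1.005 (SE 0.40, adjusted p 0.191). Map2k3 had 279.5 and 337 in WT LSK and 218 and 194 in Ripk3-/- LSK, the Ripk3-/- libraries being the lower. Its log2 difference was -0.57 (SE 0.18, adjusted p 0.108) by limma, and DESeq2 alone called it.

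Over all 40 members in LSK, 27 log2 differences were above 0 and 13 below, where 49.4% of all genes tested were above 0. The median over members was 0.20 beside -0.01 over all genes tested. An unadjusted p under 0.05 was found for 7 of the 40 members and for 3011 of all 16817 genes. The libraries of the genotypes did not overlap for 22 members, 16 higher and 6 lower in Ripk3-/-, where 44.6% of all genes did not overlap. Tier medians were 0.10 for MAP4K, 0.24 for MAP3K, 0.11 for MAP2K and 0.29 for MAPK. Markers of late granulocytes moved with genotype: 6 of 7 rose in Ripk3-/- LSK and 5 of 7 in Ripk3-/- LK, where 2.16% and 0.473% of all genes were called. Their summed signal was 689 and 755 in WT LSK, 2277 and 2698 in Ripk3-/- LSK, 778 and 772 in WT LK, and 1672 and 1667 in Ripk3-/- LK; S100a8 was the most abundant and none was at 0. Of 8 stem and multipotent markers 1 was called in LSK, higher in Ripk3-/- (median 0.19), and of 7 erythroid and megakaryocytic markers 1, lower (median -0.43). The former, Flt3, rose in Ripk3-/- LSK by 0.78 on the log2 scale (limma adjusted p 0.0298), and the latter, the erythroid factor Gata1, fell by 1.32 (limma adjusted p 0.0128). The part of these shifts in the kinase values was not tested.

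**Figure D3:**
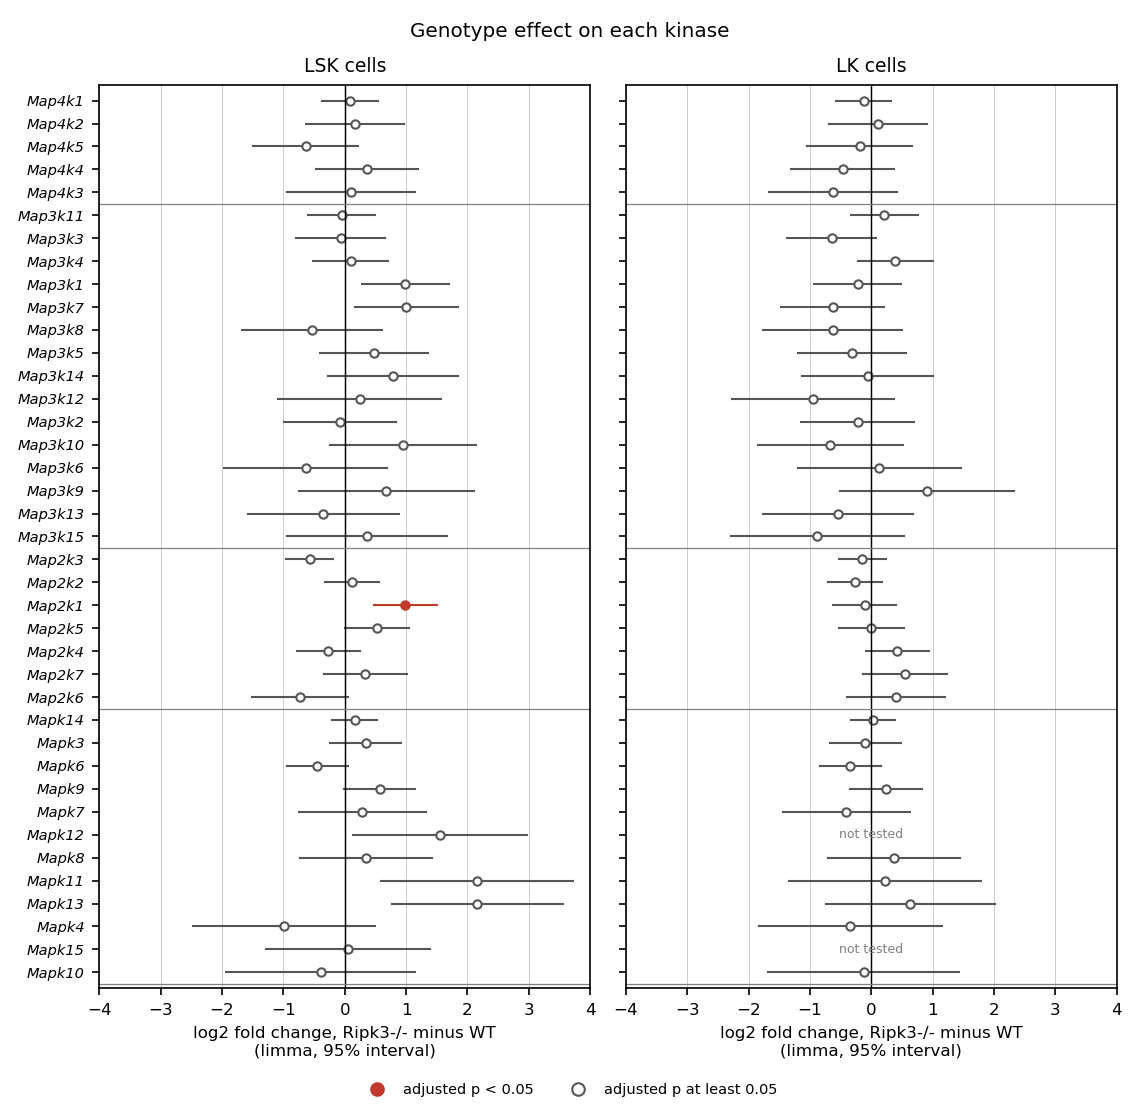
Log2 fold change of Ripk3-/- minus WT for each kinase shown in LSK (left) and LK (right) cells, with 95% intervals from limma; filled red points have an adjusted p under 0.05. Map2k1 in LSK is the only filled point; Mapk12 and Mapk15 were not tested in LK.

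In LK cells no kinase passed the test. limma called 0 of 38 members tested, where 0.473% of 13949 genes were called; 0 members and 915 of all genes had an unadjusted p under 0.05, and edgeR and DESeq2 each called 0. Mapk12 and Mapk15 were under the minimum mean signal of 1 in LK and were not tested. The median log2 difference was -0.13 beside 0.01 over all genes tested, with 14 members above 0 and 24 below. Of all genes tested in LK, 51.0% were above 0. Libraries did not overlap for 12 members, 5 higher and 7 lower in Ripk3-/-, where 40% of all genes did not overlap. Map3k12 (DLK), an activator of JNK, had a signal of 15.4 and 13.1 in WT LK and 9.07 and 5.15 in Ripk3-/- LK. Map3k10, a mixed-lineage kinase of the JNK branch, had 6.32 and 4.73 in WT LK and 2.73 and 3.48 in Ripk3-/- LK. Map3k3, which can activate ERK5 through its MAP2K, had 35.2 and 32.9 in WT LK and 17.6 and 26.0 in Ripk3-/- LK. In these 3 both Ripk3-/- LK libraries were the lower. The log2 differences were -0.95, -0.66 and -0.65, with limma adjusted p of 0.876, 0.908 and 0.815. Mapk13 had 3.67 and 5.42 in WT LK and 6.15 and 9.13 in Ripk3-/- LK, higher in both Ripk3-/- LK libraries, with a log2 difference of 0.64 (SE 0.67, adjusted p 0.923) by limma.

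Whether the genotype effect differed between LSK and LK was tested as an interaction. limma called 0 of 39 members, where 0.358% of 15901 genes were called; 4 members and 1613 of all genes had an unadjusted p under 0.05, and edgeR and DESeq2 each called 0 (4 and 5 at an unadjusted p under 0.05). The interaction for Map2k1 was 1.09 on the log2 scale (limma adjusted p 0.279), so its rise in LSK is not shown to differ from LK. For Map3k7 it was 1.63 (limma adjusted p 0.309), for Map3k1 1.21 (0.407) and for Map2k6 -1.13 (0.484). The median over members was 0.33 beside 0.00 over all genes, with 26 members above 0 and 13 below. Of all genes tested for the interaction, 50.2% were above 0. Mapk13 and Mapk9 had Ripk3-/- libraries above WT libraries in both populations. The genotypes did not overlap for 44.6% of all genes in LSK and 40% in LK. The share of all genes placed alike in both populations was not counted. A p-value that misses the threshold does not show that values did not differ.

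The populations differed more than the genotypes. In WT cells, 8 of 39 members tested were called between LSK and LK, 3 higher and 5 lower in LSK, where 23.9% of 15950 genes were called. A share of 8 in 39 is near that background. The scaling matters here: with the deposited scaling the median of all genes stands at 0.41 instead of 0.08 in WT and at 0.34 instead of 0.00 in Ripk3-/- (log2), shifts of -0.337 and -0.336 for the scaling used here. Of the genes called, 38.3% were higher in WT LSK with the scaling used and 70.9% with the deposited one; in Ripk3-/- these shares were 39.5% and 71.3%. The median over members was -0.09 in WT beside 0.08 over all genes, and 0.27 with the deposited scaling. The deposited scaling also changed the balance of member calls in WT, to 4 higher and 0 lower in LSK. Those 4 were Map2k6, Map3k8, Mapk12 and Map4k4, the last not called with the scaling used here. Libraries did not overlap for 24 members, 10 higher and 14 lower in LSK, where 64% of all genes did not overlap.

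Among the kinases lower in WT LSK, Mapk14 had a CPM of 167 and 185 in WT LSK and 259 and 259 in WT LK and a log2 change of -0.56 (SE 0.18, adjusted p 0.0268) by limma. Map2k1 had a CPM of 46.0 and 68.2 in WT LSK and 96.1 and 107 in WT LK and a log2 change of -0.84 (SE 0.25, adjusted p 0.0169). The groups did not overlap for either gene, LSK being lower in 2 of 2 libraries, and both belong to the core of the ERK and p38 branches. Map3k7 had a CPM of 17.7 and 10.1 in WT LSK and 50.8 and 27.0 in WT LK, and its log2 fold change was -1.40 (SE 0.40, adjusted p 0.0147). Mapk13 had a CPM of 1.57 and 0 in WT LSK and 4.18 and 6.11 in WT LK, with a log2 change of -1.92 (SE 0.66, adjusted p 0.0378). For both genes the LSK libraries again lay below the LK libraries. The Mapk14 call was lost without WT LSK replicate 1 (0.118), WT LK replicate 1 (0.125) or WT LK replicate 2 (0.0969), and the Map2k1 call without WT LSK replicate 1 (0.159), WT LK replicate 1 (0.0746) or WT LK replicate 2 (0.105) (limma adjusted p in brackets). The Map3k7 call was lost without WT LSK replicate 2 (0.134) or WT LK replicate 1 (0.24), and the Mapk13 call without WT LSK replicate 2 (0.248), WT LK replicate 1 (0.119), WT LK replicate 2 (0.174), Ripk3-/- LK replicate 1 (0.0519) or Ripk3-/- LK replicate 2 (0.0527). With the deposited scaling, the calls of Mapk14, Map2k1, Map3k7 and Mapk13 were lost, though each kept its direction.

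Among the kinases higher in WT LSK, Map3k8 (TPL2), which activates MEK downstream of TNF and Toll-like receptors, had a CPM of 21.9 and 17.7 in WT LSK and 5.499 and 3.19 in WT LK. Its LSK libraries lay well above the LK libraries, and it rose by 1.99 (SE 0.56, limma adjusted p 0.0126). Map2k6, an activator of p38, had a CPM of 29.7 and 30.5 in WT LSK and 14.6 and 12.9 in WT LK and rose by 1.08 (SE 0.38, limma adjusted p 0.0451), in 2 of 2 LSK libraries. Mapk12 had a CPM of 8.89 and 1.55 in WT LSK and 0 and 0.517 in WT LK and rose by 2.03 (SE 0.68, limma adjusted p 0.0332). Its LSK libraries differed widely but both were above both LK libraries, where it was at or near 0. Its log2 change spans 1.73 to 4.45 over the 17 alternatives in which it was tested. It was not tested without WT LSK replicate 1 or with a minimum mean of 5. Individual libraries decided several of these WT calls. The count of 8 became 2 without WT LK replicate 1 and 3 without WT LK replicate 2. It became 4 without WT LSK replicate 1, 5 without WT LSK replicate 2, and 6 without Ripk3-/- LK replicate 1 or 2. The Map3k8 call was lost without WT LSK replicate 1 (0.0755) or WT LK replicate 2 (0.0981), the Mapk12 call without WT LK replicate 1 (0.219) or WT LK replicate 2 (0.0727), and the Map2k6 call without WT LSK replicate 1 (0.113), WT LSK replicate 2 (0.121), WT LK replicate 1 (0.136), WT LK replicate 2 (0.154), Ripk3-/- LK replicate 1 (0.0551) or Ripk3-/- LK replicate 2 (0.0595) (limma adjusted p in brackets).

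In Ripk3-/- cells, 6 of 38 members were called between LSK and LK, 4 higher and 2 lower in LSK, where 20.2% of 15237 genes were called. The median over members was 0.19 beside 0.00 over all genes, and libraries did not overlap for 19 members, 13 higher and 6 lower in LSK, where 57.5% of all genes did not overlap. Mapk12 had a CPM of 13.6 and 13.3 in Ripk3-/- LSK and 0.144 and 0.285 in Ripk3-/- LK. Both LSK libraries were close to each other and LK was near 0; the log2 fold change was 3.58 (SE 0.68, adjusted p 0.00057) by limma, between 3.43 and 6.03 over the alternatives. Map4k4, a kinase upstream of JNK, had a CPM of 29.4 and 36.7 in Ripk3-/- LSK and 7.71 and 8.97 in Ripk3-/- LK and rose by 1.86 (SE 0.40, limma adjusted p 0.00187), in 2 of 2 LSK libraries. Mapk12 and Map4k4 kept their calls under all 20 alternatives. Map3k8 had a CPM of 16.8 and 10.6 in Ripk3-/- LSK and 3.60 and 1.42 in Ripk3-/- LK and rose by 2.11 (SE 0.55, limma adjusted p 0.0082), so it was higher in LSK in both genotypes. Mapk11 had a CPM of 22.6 and 4.19 in Ripk3-/- LSK and 1.66 and 1.14 in Ripk3-/- LK and a log2 change of 2.21 (SE 0.76, adjusted p 0.0409). Its 2 LSK libraries differed several-fold, and its call was lost under 10 of 20 alternatives, among them without WT LSK replicate 1 (0.0544), WT LSK replicate 2 (0.0544), Ripk3-/- LSK replicate 1 (0.386), Ripk3-/- LK replicate 1 (0.11) or Ripk3-/- LK replicate 2 (0.201) (limma adjusted p in brackets). Map2k4, the activator of JNK, had a CPM of 57.4 and 60.7 in Ripk3-/- LSK and 96.1 and 148 in Ripk3-/- LK and a log2 change of -1.004 (SE 0.25, adjusted p 0.00562), and Map2k3 had a CPM of 193 and 169.8 in Ripk3-/- LSK and 254 and 309 in Ripk3-/- LK. Map2k3 fell by 0.63 (SE 0.19, limma adjusted p 0.0195); for both genes the LSK libraries were under the LK libraries. Without Ripk3-/- LK replicate 2 the count of 6 became 2, Map4k4 and Mapk12. The Map3k8 call was lost without Ripk3-/- LSK replicate 1 (0.0899) or Ripk3-/- LK replicate 2 (0.127), the Map2k3 call without Ripk3-/- LSK replicate 2 (0.137) or Ripk3-/- LK replicate 2 (0.24), and the Map2k4 call without Ripk3-/- LK replicate 2 (0.184). The deposited scaling ended the calls of Map2k4 and Map2k3 without turning their direction. It left 5 members called in Ripk3-/-, 5 higher and 0 lower in LSK, with Map4k3 called in addition.

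**Figure D4:**
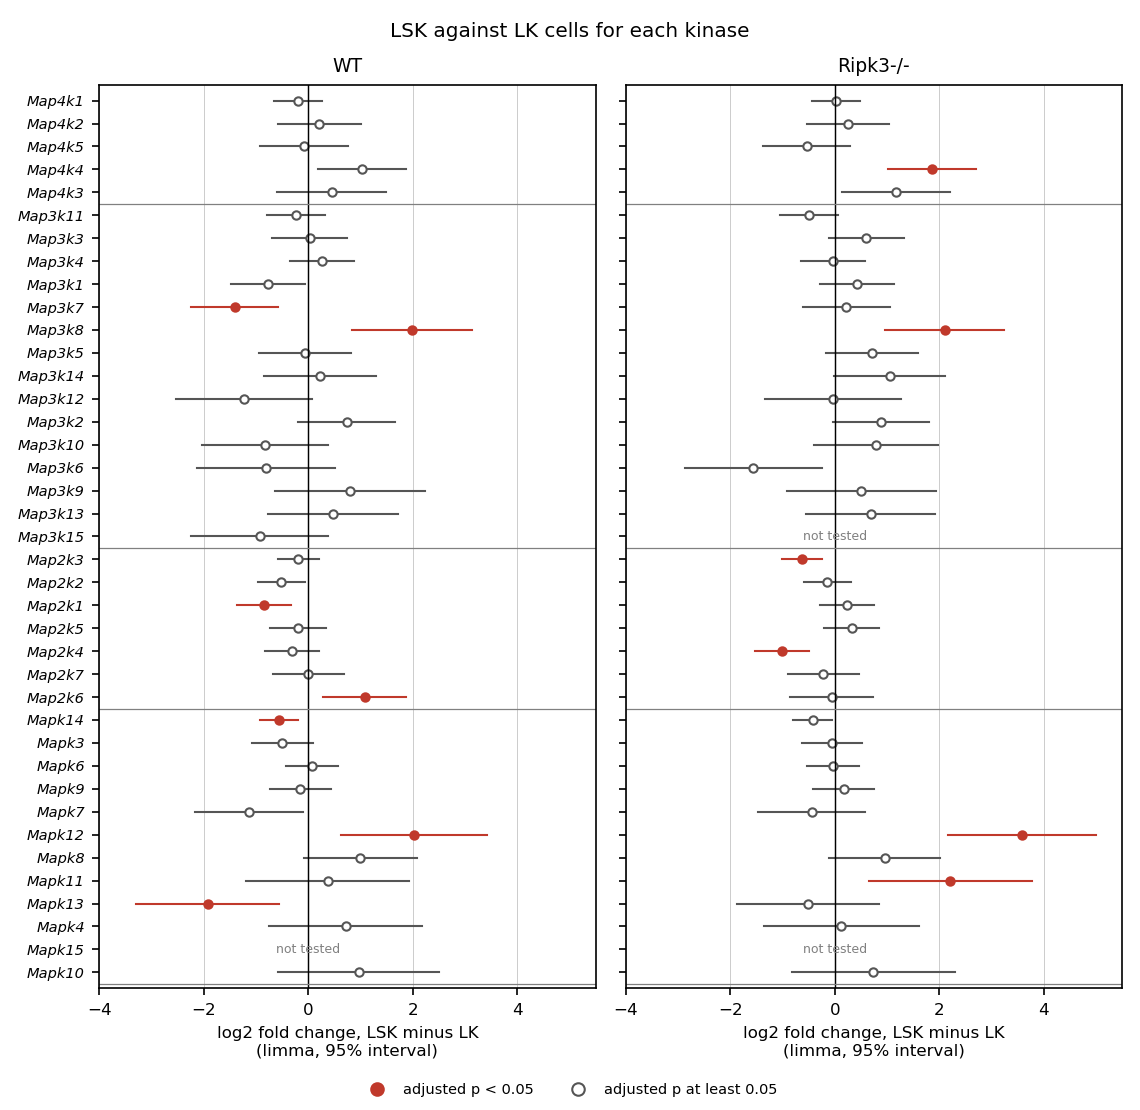
Log2 fold change of LSK minus LK for each kinase shown in WT (left) and Ripk3-/- (right), with 95% intervals from limma on CPM scaled over 8 libraries; filled red points have an adjusted p under 0.05. Map3k8 and Mapk12 are filled to the right of 0 in both panels.

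The calls between populations were not the same in each genotype, but the difference between genotypes in this comparison is the interaction already given, in which limma called 0 members. Among members called in WT only, it was 0.14 for Mapk14, 1.52 for Mapk13 and, as above, 1.63 for Map3k7, 1.09 for Map2k1 and -1.13 for Map2k6. For members called in Ripk3-/- only, it was 0.83 for Map4k4, -0.69 for Map2k4, -0.43 for Map2k3 and 1.93 for Mapk11. All of these had a limma adjusted p of at least 0.279.

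**Figure D5:**
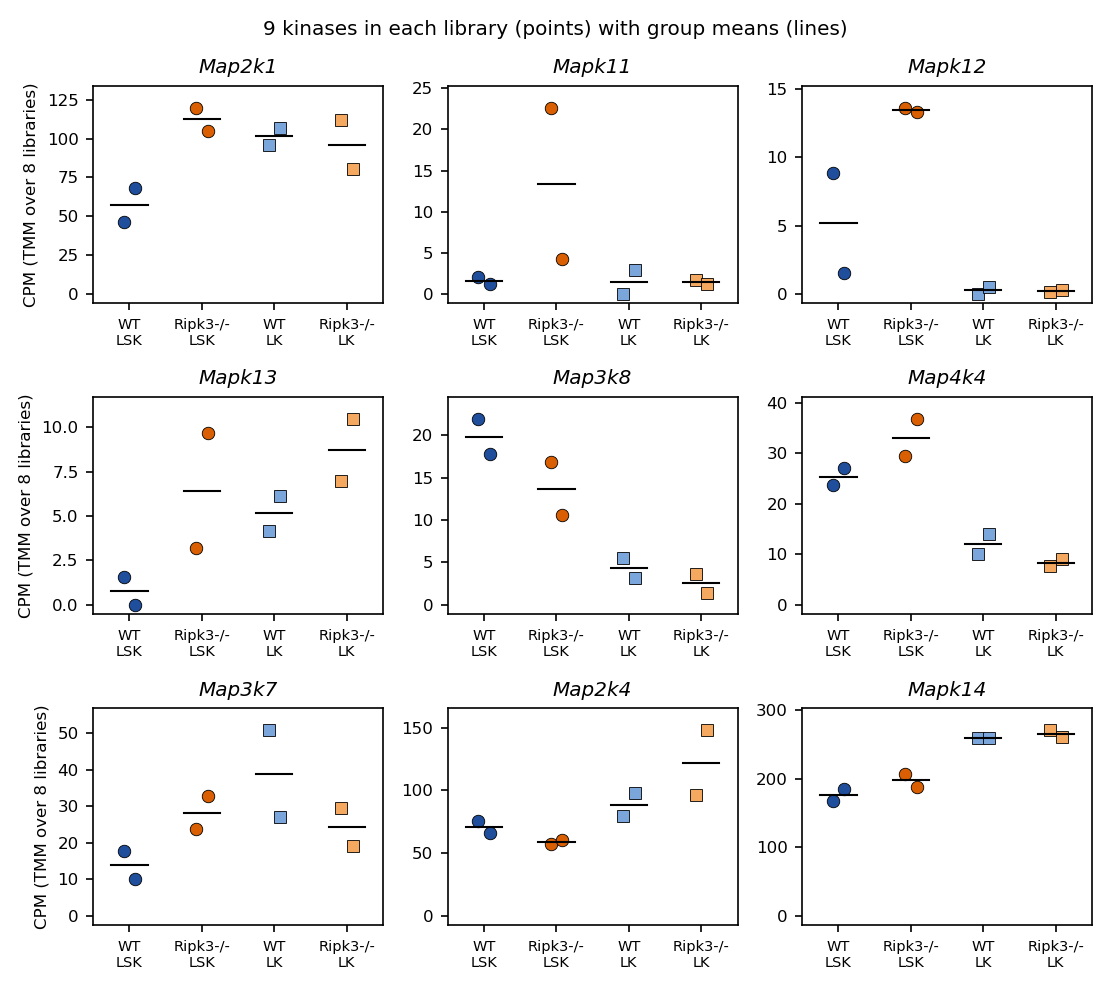
CPM (scaled over 8 libraries) of 9 kinases in each library (points) with group means (lines). Mapk12 is above 13 CPM in both Ripk3-/- LSK libraries and under 1 in all LK libraries, whereas a mean for Mapk11 in Ripk3-/- LSK rests on 1 high library.

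Promoters of Map2k1, the member called between genotypes, and of Mapk11 and Mapk12, neighbours on chromosome 15 that were both higher in Ripk3-/- LSK than in Ripk3-/- LK, are shown because the data bear on these genes. RefSeq (GRCm38.p6) promoter entries were found for 32 of the 40 members. Each sequence is 220 bases, from 250 to 31 bases before the start of the gene, 5′ to 3′ on the minus strand; capitals mark matches on either strand to any of 9 motifs searched. The windows are chr9:64253636-64253855 for Map2k1, chr15:89140734-89140953 for Mapk12 and chr15:89149637-89149856 for Mapk11.
Map2k1: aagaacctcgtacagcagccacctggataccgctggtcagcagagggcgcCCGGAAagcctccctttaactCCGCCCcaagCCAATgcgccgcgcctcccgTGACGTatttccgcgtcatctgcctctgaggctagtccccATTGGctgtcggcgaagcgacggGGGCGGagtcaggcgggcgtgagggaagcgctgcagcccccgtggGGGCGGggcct
Mapk12: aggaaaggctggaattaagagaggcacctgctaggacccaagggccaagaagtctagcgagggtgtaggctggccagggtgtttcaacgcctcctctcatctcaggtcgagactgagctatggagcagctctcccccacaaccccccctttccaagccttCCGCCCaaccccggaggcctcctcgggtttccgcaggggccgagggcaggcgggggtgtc
Mapk11: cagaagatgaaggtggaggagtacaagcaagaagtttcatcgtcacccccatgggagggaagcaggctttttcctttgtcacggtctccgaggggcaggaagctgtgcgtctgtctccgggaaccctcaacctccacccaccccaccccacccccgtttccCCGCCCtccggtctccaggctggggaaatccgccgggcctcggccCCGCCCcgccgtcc

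GGGCGG, the core of the GC box, was matched 3 times in Map2k1, 1 time in Mapk12 and 2 times in Mapk11, and occurs in 28.5% of 32851 promoter windows of that length. Map2k1 also held CCAAT 2 times, TGACGT 1 time and CCGGAA 1 time, motifs found in 31%, 5.14% and 9.47% of windows. CACGTG (5.01%), TGANTCA (6.12%), TGTGGT (12.7%), AGATAA (9.04%) and TATAAA (9.95%) had 0 matches in the 3 windows, and no matches overlapped. The motifs were picked after the sequences had been seen, and the window was shortened after a first search so that it holds no annotated exon; a match is a description of letters, not a site.

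The remaining kinases described for their role or level stayed under the threshold in every comparison. Mapk3 (ERK1) gave a signal of 55.3 and 58.6 for WT LSK, 62.5 and 84.4 for Ripk3-/- LSK, 57.4 and 67.9 for WT LK, and 44.6 and 76.1 for Ripk3-/- LK. Mapk8 (JNK1) had 20.6 and 12.5 for WT LSK, 24.2 and 17.7 for Ripk3-/- LSK, 3.46 and 9.39 for WT LK, and 9.89 and 6.15 for Ripk3-/- LK. Map3k5 (ASK1), which answers oxidative stress, had 25.2 and 15.7 for WT LSK, 23.2 and 33.7 for Ripk3-/- LSK, 19.9 and 13.1 for WT LK, and 16.7 and 9.69 for Ripk3-/- LK. Within each population the genotypes overlapped for Mapk8 and Map3k5, and for Mapk3 in LK, while both Ripk3-/- LSK libraries had more Mapk3 than either WT LSK library. Map4k1 had 111 and 152 for WT LSK, 153 and 125 for Ripk3-/- LSK, 124 and 106 for WT LK, and 98.7 and 112 for Ripk3-/- LK, and its genotypes overlapped in both populations. Map3k11 had 47.9 and 63.6 for WT LSK, 54.8 and 51.7 for Ripk3-/- LSK, 49.8 and 50.8 for WT LK, and 52.2 and 65.6 for Ripk3-/- LK, with overlap in LSK and both Ripk3-/- LK libraries above WT LK. The lowest limma adjusted p among Mapk3, Mapk8, Map3k5, Map4k1 and Map3k11 was 0.16.

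The other 20 members were not called in any comparison with the main settings. Their signal ran from 3.995 to 52.8 over libraries for 3 MAP4K genes, from 0.248 to 67.6 for 8 MAP3K genes, from 24.0 to 222 for 3 MAP2K genes and from 0 to 159 for 6 MAPK genes. Log2 differences between genotypes lay between -0.99 (Mapk4) and 0.99 (Map3k1) in LSK, and between -0.88 (Map3k15) and 0.91 (Map3k9) in LK. Between populations they lay between -1.13 (Mapk7) and 0.96 (Mapk10) in WT, and between -1.56 (Map3k6) and 1.17 (Map4k3) in Ripk3-/-. The nearest to a call was Map2k2 between WT LSK and WT LK, with a limma adjusted p of 0.0852. Replicates were at least 2-fold apart for 7 of 39 members in WT LSK, 8 in Ripk3-/- LSK, 6 in WT LK and 5 in Ripk3-/- LK. Some reads cannot be assigned with certainty, since the strand setting of the counting is not stated: in GENCODE M21 Map2k7 shares 1349 of 3771 exon bases with Gm49320 on the same strand, and Map3k12 shares 1573 of 5725 with Pcbp2 on the opposite strand. Map3k7 has a pseudogene, Gm8188, with 95.1% identity over 1708 bases that the files do not list, and Map3k4, Map3k15, Mapk3 and Mapk6 also have pseudogenes with at least 90% identity over shorter stretches.

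Genes around the cascade were compared in the same fits. Of 18 scaffolds and regulators tested in LSK, 0 were higher and 2 lower in Ripk3-/-, where 2.16% of all genes were called, and 8 had an unadjusted p under 0.05; edgeR and DESeq2 each called 2, and the median was -0.35 beside -0.01 over all genes. Gadd45b, a stress-induced activator of Map3k4, gave a signal of 215 and 302 for WT LSK, 86.2 and 109 for Ripk3-/- LSK, 67.9 and 71.4 for WT LK, and 30.9 and 51.2 for Ripk3-/- LK. It fell in Ripk3-/- LSK by 1.39 on the log2 scale (SE 0.26, limma adjusted p 0.00426). Pebp1, an inhibitor of RAF, had 388 and 414 in WT LSK and 230.3 and 205 in Ripk3-/- LSK, all Ripk3-/- values being lower, and fell by 0.88 (SE 0.17, limma adjusted p 0.00613). The Gadd45b call was lost without WT LSK replicate 2 (adjusted p 0.109) or Ripk3-/- LSK replicate 1 (0.0889), and the Pebp1 call without WT LSK replicate 1 (0.0511), WT LSK replicate 2 (0.0905) or Ripk3-/- LSK replicate 2 (0.0842). Over all 19 alternatives, the Gadd45b call was lost under 3 and the Pebp1 call under 5. limma called 0 of 11 RAF and other upstream kinases, 0 of 15 RAS genes and adaptors, 0 of 11 kinases activated by MAPK, 0 of 8 MAPK phosphatases and 0 of 24 ERK feedback and early target genes in LSK. An unadjusted p under 0.05 was found for 4, 1, 1, 3 and 4 genes of these 5 lists; edgeR called 0 in each, and DESeq2 called 1 upstream kinase, 2 feedback and early target genes and 0 elsewhere.

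In LK, the genotype calls among these lists were a phosphatase and an early target gene. Dusp2, a phosphatase that switches off ERK and p38, gave a signal of 396 and 263 for WT LSK, 404 and 426 for Ripk3-/- LSK, 283 and 149 for WT LK, and 26.7 and 54.0 for Ripk3-/- LK. Both Ripk3-/- LK libraries were far under every other library. Dusp2 fell in Ripk3-/- LK by 2.41 (SE 0.29, limma adjusted p 5.2e-05), the 1 call among 9 phosphatases tested, where 0.473% of all genes were called; 4 of the 9 had an unadjusted p under 0.05, and their median was -0.25 beside 0.01 over all genes. The call was lost under 2 of 19 alternatives, with no filter on low values (adjusted p 0.12) and without a trend (0.517); edgeR called 1 of the 9 phosphatases and DESeq2 called 3. Its interaction was 2.77 (limma adjusted p 0.00177), a call lost under 3 of 18 alternatives: without WT LSK replicate 2 (adjusted p 0.06), with no filter (0.299) and without a trend (0.253). Junb, an early target gene, had 845 and 689 in WT LK and 346 and 493 in Ripk3-/- LK and fell by 0.88 (SE 0.17, limma adjusted p 0.0146), 1 of 21 such genes called (5 at an unadjusted p under 0.05; 1 called by edgeR and 2 by DESeq2); the call was lost without WT LK replicate 1 (0.443) or Ripk3-/- LK replicate 1 (0.625), and under 5 of 19 alternatives in all. Mknk2, a kinase that MAP kinases activate and that phosphorylates the translation factor eIF4E, had 72.6 and 76.2 for WT LSK, 123 and 130.3 for Ripk3-/- LSK, 97.8 and 80.4 for WT LK, and 40.8 and 51.5 for Ripk3-/- LK. It was higher in Ripk3-/- LSK and lower in Ripk3-/- LK than in WT, and its interaction of 1.70 was called (limma adjusted p 0.0208). That call was lost without 7 of the 8 libraries in turn, the exception being WT LK replicate 2, with adjusted p up to 0.209 (without Ripk3-/- LK replicate 1), and under 9 of 18 alternatives in all. In LK limma called 0 of 12 RAF and other upstream kinases, 0 of 15 RAS genes and adaptors, 0 of 18 scaffolds and 0 of 10 kinases activated by MAPK. An unadjusted p under 0.05 was found for 0, 2, 3 and 3 of these; edgeR called 0 in each, and DESeq2 called 1 RAS or adaptor gene, 2 kinases activated by MAPK and 0 elsewhere.

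Between populations, 23.9% of all genes were called in WT and 20.2% in Ripk3-/-, with medians of 0.08 and 0.00, and the counts for each list stand beside these. Of 24 ERK feedback and early target genes, 8 were higher and 0 lower in WT LSK, with a median of 0.84, and 10 of 23 were higher and 0 lower in Ripk3-/- LSK, with a median of 1.17. Fosb, an AP-1 subunit, had a CPM of 708 and 827 in WT LSK and 163 and 271 in WT LK and rose by 1.86 in WT (limma adjusted p 1.08e-06) and by 2.40 in Ripk3-/- (1.61e-08). Spry1, a feedback inhibitor of RAS signalling, had a CPM of 40.4 and 74.0 in WT LSK and 18.7 and 12.0 in WT LK and rose by 1.80 (limma adjusted p 0.0021), a call lost without WT LSK replicate 2 (0.0598); in Ripk3-/- it rose by 2.24. Of MAPK phosphatases, 4 of 9 were higher and 0 lower in WT LSK (Dusp1, Dusp4, Dusp5, Dusp6), and 4 of 8 higher and 0 lower in Ripk3-/- LSK (Dusp1, Dusp2, Dusp5, Dusp6). The WT call of Dusp4 was lost without WT LSK replicate 1 (0.0541), WT LSK replicate 2 (0.232) or WT LK replicate 1 (0.338), and that of Dusp1 without WT LSK replicate 2 (0.0767) or WT LK replicate 2 (0.0821). Dusp5 rose by 1.94 in WT and 2.80 in Ripk3-/- (limma adjusted p 0.00092 and 1.27e-05). Of kinases activated by MAPK, 0 were higher and 5 of 11 lower in WT LSK, and 1 was higher and 3 of 10 lower in Ripk3-/- LSK. Mapkapk3, a p38 substrate kinase, fell by 1.84 in WT (limma adjusted p 2.16e-07) and by 1.85 in Ripk3-/- (1.46e-07), and Rps6ka1 (RSK1) had log2 changes of -1.47 and -1.119. The Mapkapk2 call in WT rested on WT LK replicate 1, with 361 CPM against 125 in replicate 2, and was lost without it (limma adjusted p 0.159).

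RAF and other upstream kinases had 0 higher and 2 of 12 lower in WT LSK, where 23.9% of all genes were called, and 1 higher and 1 lower of 11 in Ripk3-/- LSK, where 20.2% were. Taok3, a stress kinase of the MAP3K level, had a CPM of 56.7 and 63.0 in WT LSK and 154 and 165 in WT LK and fell by 1.40 (limma adjusted p 4.42e-05); in Ripk3-/- it fell by 1.25 (0.000134). RAS genes and adaptors had 1 higher and 4 of 15 lower in WT LSK, and 0 higher and 2 of 15 lower in Ripk3-/- LSK. Shc1, an adaptor between receptors and RAS, had a CPM of 59.1 and 44.3 in WT LSK and 134 and 144 in WT LK with log2 changes of -1.42 in WT and -1.83 in Ripk3-/- (limma adjusted p 0.000314 and 1.44e-05). Scaffolds and regulators had 2 higher and 3 lower of 18 in WT, and 4 higher and 2 lower in Ripk3-/-. Gadd45b was among the higher in both, rising by 1.49 in WT and 0.89 in Ripk3-/-.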

How the data were processed

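The labels name TopHat and the mm9 genome, without a version; the counting tool, annotation and strand setting are not stated. The deposited signal, headed FPKM per the file headers, was made by the authors from reads per gene with TMM scaling within each population. Every value was a whole multiple of 1 step per library (100% of values, within 0.01), and TMM recomputed within populations matched the deposited factors to 4.85e-11, so reads were recovered. All 8 libraries and all genes with a mean of at least 1 over a comparison's libraries entered 1 fit of log2(value + 1) on 4 group means with limma 3.58.1 (trended eBayes, two-sided) in R 4.3.3; an adjusted p under 0.05 was a call. LSK against LK used CPM with TMM over all 8 libraries. Alternatives used edgeR 4.0.16, DESeq2 1.42.0, other pseudocounts, filters, scalings and blocks, and each library left out in turn. A crossed replicate block was chosen after seeing the data. Members and gene lists were chosen with earlier results of these data known. Described individually, where printed, were members called, the 4 largest without overlap in each of the 4 comparisons of 2 groups (not the interaction, which has no such pair), the highest per kb in each tier, and textbook kinases. From other lists, called genes were eligible, up to 4 per list and comparison, of which only some are named.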

Additional observations from a re-analysis of the deposited data

Results flagged for a closer look

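Genotype differences that ran unlike in LSK and LK drew attention to 6 genes. For 3 of them the difference itself passed the test of interaction (LSK effect minus LK effect, log2, limma). Dusp2, a phosphatase of ERK and p38, had an interaction of 2.77 (adjusted p 0.00177). Mknk2, a kinase activated by MAPK, had 1.70 (adjusted p 0.0208). S100a8, a late granulocyte marker, had 1.23 (adjusted p 0.0216), its signal being 231 and 273 for WT LSK, 624 and 869 for Ripk3-/- LSK, 433 and 446 for WT LK, and 566 and 528 for Ripk3-/- LK.

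For 3 kinases both libraries moved 1 way in LSK and both the other way in LK, without passing the test. Of all genes tested, 44.6% did not overlap between genotypes in LSK and 40% in LK. The share of all genes placed in opposite ways was not counted. Map2k6, the p38 activator, gave a signal of 33.9 and 34.7 for WT LSK, 19.5 and 21.03 for Ripk3-/- LSK, 12.8 and 11.4 for WT LK, and 13.6 and 19.4 for Ripk3-/- LK; its interaction was -1.13 (limma adjusted p 0.484). Map3k10 had 3.58 and 3.42 for WT LSK, 8.44 and 7.04 for Ripk3-/- LSK, 6.32 and 4.73 for WT LK, and 2.73 and 3.48 for Ripk3-/- LK, with 1.62 (limma adjusted p 0.512). Map4k4 had 26.9 and 30.8 for WT LSK, 33.2 and 42.0 for Ripk3-/- LSK, 8.76 and 12.4 for WT LK, and 6.79 and 7.82 for Ripk3-/- LK, with 0.83 (limma adjusted p 0.635). With 2 libraries a group, such opposite placement was not tested on its own, and its cause was not tested.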

How the results depend on the processing

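Members called or among the largest without overlap were followed under each alternative in which they were tested. So were called genes of the other lists (at most 4 a list). None of these changed direction, and other genes were not followed. Genes called between genotypes in LSK (363) were 198 with no filter on low values, 237 by edgeR, 613 by DESeq2, 120 without a trend, 195 from the 4 libraries of the comparison alone and 3060 by a 2-fold change with no p-value. Members called there (1) were 0 with a pseudocount of 0.1, no filter, edgeR, median-centred values, no trend or 4 libraries alone, 2 by DESeq2 and 4 by 2-fold change. In LK, genes called (66) were 9 with no filter, 177 by DESeq2, 3 without a trend, 125 from 4 libraries alone and 824 by 2-fold change, and members called were 0 throughout. For the interaction, genes called (57) were 3 with no filter, 155 by DESeq2, 2 without a trend and 3618 by 2-fold change, and members called (0) were 10 by 2-fold change. Between WT LSK and WT LK, genes called (3814) were 1998 without a trend, and members called (8) were 4 with no filter, 4 with the deposited scaling and 2 without a trend. Between Ripk3-/- LSK and Ripk3-/- LK, genes called (3072) were 1494 without a trend, and members called (6) were 3 without a trend. Leaving out each library in turn, genes called ran from 99 to 262 in LSK, 13 to 101 in LK, 17 to 90 for the interaction, 1502 to 4116 in WT and 1489 to 3163 in Ripk3-/-; members called were 0 in LSK, LK and the interaction, 2 to 8 in WT and 2 to 6 in Ripk3-/-. Where 1 library then remained in a group, it was assumed to vary like the others. With a replicate block, members called were 1, 0, 0, 7 and 6 and genes called 317, 64, 53, 3598 and 2940 in the same order; same-numbered libraries need not be paired, and a crossed replicate block, chosen after seeing the data, gave 6 members in Ripk3-/-. edgeR called 60 genes in LK, 54 for the interaction, 2894 in WT and 2584 in Ripk3-/-. Apart from fewer libraries or genes entering a fit, the cause was not tested. Members near 0, such as Mapk12 in LK, are limited by depth.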
